A study of Mus musculus with 8 samples.

Results

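Glycolysis converts glucose to pyruvate, and several of its enzymes are encoded by more than one gene. The 10 genes described here encode hexokinase (Hk1, Hk2 and Hk3), glucose-6-phosphate isomerase (Gpi1), phosphofructokinase (Pfkm, Pfkl and Pfkp), the aldolase Aldoa, glyceraldehyde-3-phosphate dehydrogenase (Gapdh) and the pyruvate kinase Pkm. They were taken by gene symbol from the deposited count matrix, in which all 10 were present among 13387 genes. Bulk RNA-Seq was done on 4 libraries of murine megakaryocytes (MKs, the marrow cells that shed platelets) cultured alone and on 4 libraries of MKs cocultured with mesenchymal stromal cells (MSCs). Every library came from C57BL/6 mice with no engineered allele, and both conditions lasted 18 hours. The methods describe MKs enriched from flushed marrow with beads against CD41, MSCs sorted as CD45- Ter119- CD31- CD51+ CD140a+ cells, thrombopoietin in the medium, and wells pooled into each library. Enrichment on CD41 leaves other marrow cells in both groups. The labels name the material as MKs, whereas the methods name platelets made in the cultures, and the labels do not tie a library to an animal or culture. The ages in the methods are those of young adult mice, and the study counts its replicates as mice. The p-values below measure the spread between these libraries, which may be in part technical where libraries shared an animal.

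Hexokinase phosphorylates glucose and so keeps it in the cell, and phosphofructokinase commits it to glycolysis. Hk1 is the widespread hexokinase bound to mitochondria, Hk2 is the form known from insulin-sensitive and fast-growing tissues, and Hk3 is known from myeloid cells. Pfkm, Pfkl and Pfkp encode the muscle, liver and platelet subunits of phosphofructokinase, which assemble into mixed tetramers. Platelets and their precursors are known to rely on glycolysis for much of the energy used in activation.

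The comparison asked whether glycolytic isoform use differed between MKs cultured alone and MKs from MSC cocultures. Gapdh and Pkm rose in the cocultures, 2.88-fold and 2.38-fold, and no member was called lower. Neither gene was called without replicate 3 of the cocultures, where the folds were 1.99 and 1.74, or without any 1 library of MKs alone. The proportions of the 3 hexokinase and of the 3 phosphofructokinase transcripts overlapped between the groups. Gpi1 was 1.42-fold lower on average and did not pass the test with all 8 libraries. Levels are given as CPM, the count of a gene relative to the library total after scaling with TMM factors. A gene was called when it differed at least 2-fold, had an adjusted p (Benjamini-Hochberg) no higher than 0.05 in edgeR's quasi-likelihood test over 11722 genes, and reached a mean of 1 CPM in at least 1 group. By this rule 2 of the 10 members were called higher, against 13.2% of all genes tested, and 0 were called lower, against 7.31%. In edgeR's test without the fold requirement the members called were again 2 higher and 0 lower, against 14.3% and 8.75% of all genes. The median log2 fold change of the members was 0.56, and that of all genes was 0.03. Without replicate 3 of the cocultures, a library described below, the member median was 0.28 and that of all genes 0.03.

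The libraries held between 4939874 and 12523616 counts, and 3 counts corresponded to between 0.284 and 0.662 CPM. Replicate 3 of the cocultures stood apart from the other libraries. It had counts for 10735 genes, whereas the other 3 cocultures had counts for between 13104 and 13193, and its TMM factor was the lowest at 0.765. This library held the highest value of the 8 for 6 members and the lowest for 2, so values without it are given beside the results it touches. Without it, 20.6% of genes were called higher and 15.4% lower, and 1 member (Pfkm) was called higher. In the same fit, by adjusted p alone, 4 members were higher (Pfkm, Pfkl, Gapdh and Pkm) and 1 was lower (Gpi1), against 29.2% and 25.9% of all genes.

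Markers of other cells moved with the groups. The summed level of the MSC markers was between 14.9 and 22.9 CPM in MKs cultured alone and between 1660 and 4862 CPM in the cocultures, and 7 of the 8 MSC markers tested were called higher (8 without replicate 3 of the cocultures). Sparc, the highest MSC marker, had a mean of 0.548 CPM alone and 963 CPM in the cocultures, and Lepr and Postn were at 0 in replicate 3 of the cocultures. The macrophage markers summed to between 157 and 233 CPM alone and between 1050 and 2132 CPM in the cocultures, with 10 of 10 called higher and Csf1r the highest of them. Marco was at 0 in every library of MKs cultured alone. The neutrophil markers summed to between 85388 and 87555 CPM alone and between 4547 and 10337 CPM in the cocultures, with 12 of 12 called lower and S100a8 the highest of them. Of 8 B cell markers 4 were called lower, with sums between 854 and 902 CPM alone and between 61.1 and 225 CPM in the cocultures, and Ms4a1 was the highest. Of 5 eosinophil markers 4 were called lower, with sums between 858 and 1535 CPM alone and between 12.1 and 58.5 CPM in the cocultures, and Prg2 was the highest. The erythroid markers, led by Hbb-bs (a gene with a near-identical copy), summed to between 23.5 and 31.7 CPM alone and between 7.03 and 55.5 CPM in the cocultures, and 0 of the 3 tested were called (2 lower without replicate 3 of the cocultures). The 15 MK and platelet markers, led by Pf4, summed to between 1921 and 2545 CPM alone and between 1767 and 2537 CPM in the cocultures, and 0 were called in either direction. Without replicate 3 of the cocultures 3 of these 15 were called lower, and by adjusted p alone 1 was lower over 8 libraries and 6 without that replicate. In every library the neutrophil markers summed to more than the MK and platelet markers. Glycolytic enzymes are expressed by all of these cells, and the part of cell makeup in the results below was not tested. In bulk libraries, fewer cells of a type and less RNA per cell cannot be told apart.

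**Figure D1:**
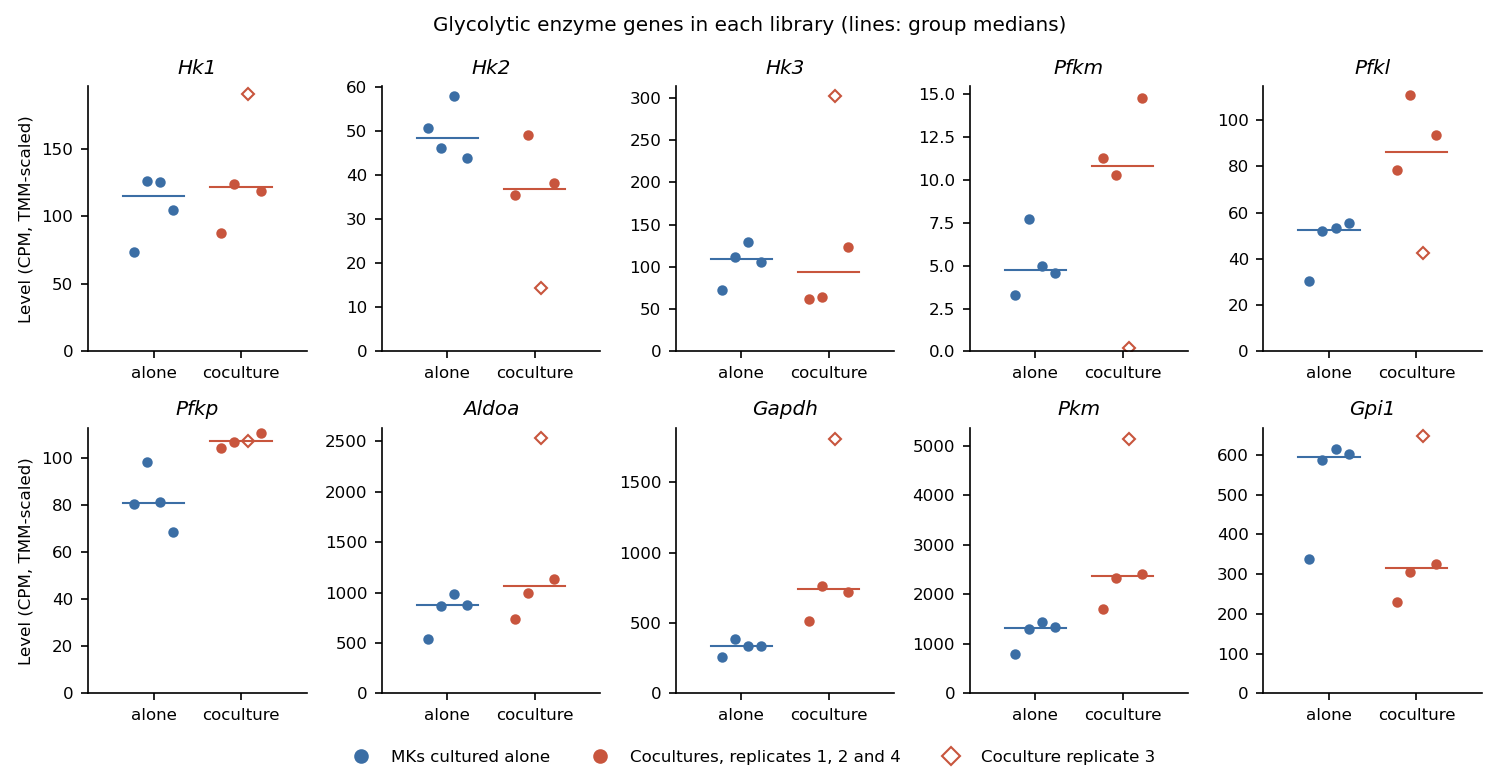
TMM-scaled CPM of the 10 members in each of the 4 libraries of MKs cultured alone and the 4 cocultures. Gapdh and Pkm lie higher in every coculture than in any library of MKs alone, and replicate 3 of the cocultures holds the highest Aldoa, Gapdh and Pkm and the lowest Hk2 and Pfkm.

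No hexokinase passed the test. Hk1 (chr10:62268855-62379908, minus strand, GRCm38) had 73.9, 126, 126 and 104 CPM in replicates 1 to 4 of MKs cultured alone and 88.0, 124, 191 and 119 CPM in the cocultures. The groups overlapped, and the highest value was in replicate 3 of the cocultures (log2 fold change 0.28 ± 0.28 SE, adjusted p = 0.522, edgeR's quasi-likelihood test). Without that library the difference was near 0 (log2 fold change 0.01 ± 0.20 SE, adjusted p = 0.963, edgeR).

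Hk2 (chr6:82725025-82774454, minus strand) had 50.8, 46.3, 58.1 and 43.9 CPM in MKs cultured alone and 35.5, 49.1, 14.4 and 38.3 CPM in the cocultures. Replicate 2 of the cocultures lay inside the range of MKs alone, and replicate 3 was the lowest of the 8 (log2 fold change -0.54 ± 0.37 SE, adjusted p = 0.336, edgeR). The Hk2 difference was smaller without replicate 3 (log2 fold change -0.30 ± 0.19 SE, adjusted p = 0.195, edgeR). Hk3 (chr13:55005985-55021385, minus strand) had 72.2, 112, 129.6 and 106 CPM alone and 62.1, 64.2, 302 and 124 CPM in the cocultures. The cocultures held both the lowest value, in replicate 1, and the highest, in replicate 3. The sign of the Hk3 difference rested on that library, with a positive value over 8 libraries (log2 fold change 0.39 ± 0.50 SE, adjusted p = 0.614, edgeR) and a negative one without it (log2 fold change -0.36 ± 0.25 SE, adjusted p = 0.231, edgeR). Exons of Hk3 overlap Unc5a on the opposite strand, and reads of the overlapping genes named here cannot be told apart where counting did not use strand.

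Gpi1 (chr7:34201330-34230336, minus strand) interconverts glucose 6-phosphate and fructose 6-phosphate. Its level was 338, 588, 616 and 603 CPM in MKs cultured alone and 229.9, 306, 647 and 326 CPM in the cocultures. Replicates 1, 2 and 4 of the cocultures lay below every library of MKs alone, and replicate 3 lay above all of them. With 8 libraries Gpi1 was not called (log2 fold change -0.51 ± 0.35 SE, adjusted p = 0.329, edgeR). Without replicate 3 of the cocultures it was lower by 1.89-fold, short of the fold requirement (log2 fold change -0.92 ± 0.22 SE, adjusted p = 0.00198, edgeR).

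Among the phosphofructokinases, Pfkp (chr13:6579768-6648777, minus strand), the platelet subunit, had 80.3, 98.2, 81.3 and 68.7 CPM in MKs cultured alone and 104, 107, 107 and 110.5 CPM in the cocultures. All 4 cocultures lay above all 4 libraries of MKs alone and within a narrow band (107 ± 2.60 CPM, SD, n = 4), yet the difference did not pass (log2 fold change 0.38 ± 0.18 SE, adjusted p = 0.167, edgeR). It did not pass without replicate 3 of the cocultures either (log2 fold change 0.36 ± 0.17 SE, adjusted p = 0.0813, edgeR). CPM did not overlap, with the cocultures higher, for 3 members (Pfkp, Gapdh and Pkm) against 19.3% of genes tested, and for 0 members with the cocultures lower against 21.1%. Exons of Pfkp overlap Pitrm1 on the opposite strand.

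Pfkl (chr10:77986947-78010083, minus strand), the liver subunit, had 30.5, 51.9, 53.3 and 55.6 CPM alone and 78.6, 111, 42.4 and 93.5 CPM in the cocultures. Replicates 1, 2 and 4 of the cocultures were above every library of MKs alone, and replicate 3 was inside their range (log2 fold change 0.76 ± 0.34 SE, adjusted p = 0.139, edgeR). Without replicate 3 the adjusted p passed and the fold, 1.93, did not (log2 fold change 0.95 ± 0.21 SE, adjusted p = 0.00117, edgeR).

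Pfkm (chr15:98092589-98132451, plus strand), the muscle subunit, was the lowest member, with 3.31, 7.73, 4.99 and 4.56 CPM alone and 11.3, 10.3, 0.209 and 14.7 CPM in the cocultures. The value in replicate 3 of the cocultures came from 2 counts, under the 3-count floor of that library, and the other cocultures lay above all libraries of MKs alone. Over 8 libraries it was not called (log2 fold change 0.82 ± 0.94 SE, adjusted p = 0.575, edgeR), and without replicate 3 it was called higher by 2.26-fold (log2 fold change 1.18 ± 0.32 SE, adjusted p = 0.00514, edgeR). Exons of Pfkm overlap Senp1 on the opposite strand. Without replicate 3, CPM lay higher in the cocultures without overlap for 5 members against 28.1% of genes tested, and lower for 1 (Gpi1) against 26.3%.

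Aldoa, which splits fructose 1,6-bisphosphate, is annotated as a pair of gene models on the minus strand of chromosome 7, at chr7:126795234-126800751 and chr7:126800790-126809108. Its counts under the shared symbol were 541, 872, 983 and 879 CPM in MKs cultured alone and 736, 995, 2534 and 1137 CPM in the cocultures. Replicates 2, 3 and 4 of the cocultures lay above every library of MKs alone, with replicate 3 the highest, and replicate 1 lay within their range (log2 fold change 0.72 ± 0.39 SE, adjusted p = 0.219, edgeR). Without replicate 3 the difference was smaller (log2 fold change 0.20 ± 0.22 SE, adjusted p = 0.444, edgeR).

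Gapdh (chr6:125161715-125166467, minus strand), which oxidizes glyceraldehyde 3-phosphate and is often used as a reference gene, had 256, 388, 335 and 340.2 CPM in MKs cultured alone and 514, 765, 1807 and 717 CPM in the cocultures. Every coculture lay above every library of MKs alone, and replicate 3 was more than 2 times as high as any other coculture. Gapdh was called higher by 2.88-fold (log2 fold change 1.53 ± 0.38 SE, adjusted p = 0.0210, edgeR). Without replicate 3 the fold was 1.99, just below the fold requirement, with a smaller error (log2 fold change 0.99 ± 0.19 SE, adjusted p = 0.000345, edgeR). Without replicate 1, 2, 3 or 4 of MKs cultured alone the adjusted p was 0.0739, 0.0538, 0.0648 and 0.0664 (edgeR), so Gapdh was not called with 3 libraries in that group, while its log2 fold change was 1.41, 1.65, 1.52 and 1.53. Exons of Gapdh overlap Iffo1 on the opposite strand, and Gapdh is known to have many processed pseudogenes with which reads could be shared.

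Pkm (chr9:59656368-59679375, plus strand), which makes pyruvate, had 792, 1297, 1443 and 1349.8 CPM in MKs cultured alone and 1714, 2332, 5146 and 2419 CPM in the cocultures. All 4 cocultures were above all 4 libraries of MKs alone, and Pkm was called higher by 2.38-fold (log2 fold change 1.25 ± 0.37 SE, adjusted p = 0.0385, edgeR). Without replicate 3 the fold was 1.74, under the fold requirement (log2 fold change 0.80 ± 0.22 SE, adjusted p = 0.00504, edgeR). Without replicate 2 or 4 of the cocultures the adjusted p was 0.0570 and 0.0592, and without replicate 1, 2, 3 or 4 of MKs alone it was 0.105, 0.0916, 0.0794 and 0.0907 (edgeR). In these 6 fits the Pkm log2 fold change was between 1.08 and 1.39. The Pkm gene yields the PKM1 and PKM2 splice forms, which gene-level counts cannot tell apart.

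**Figure D2:**
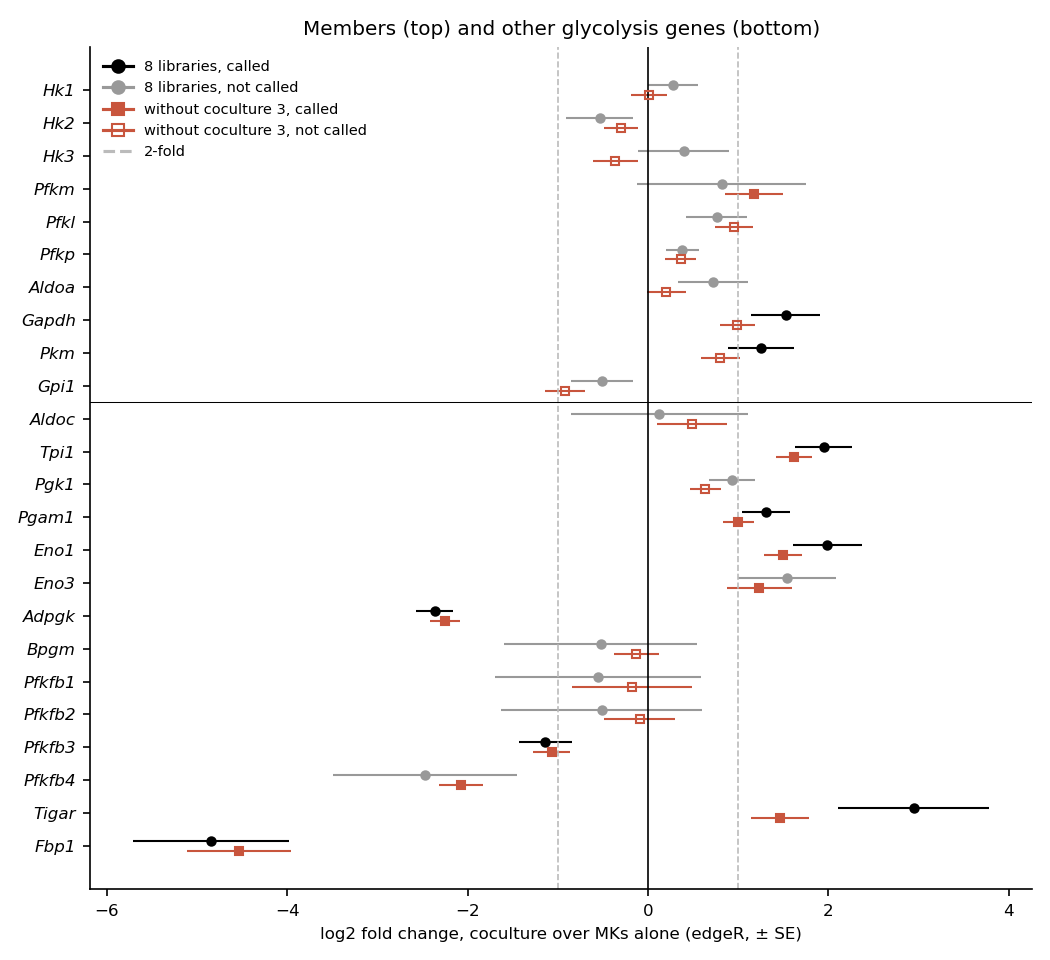
Log2 fold change of cocultures over MKs cultured alone with its SE (edgeR), for the 10 members above the line and the 14 other glycolysis genes tested below it, over 8 libraries (circles) and without replicate 3 of the cocultures (squares). Gapdh and Pkm are called over 8 libraries, and Pfkm is called without that replicate.

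The other genes of the pathway were 23 listed by hand, of which 16 were in the matrix and 14 were tested. Of these, 4 were called higher (13.2% over all genes), 3 lower (7.31% over all genes) and 7 neither, and their median log2 fold change was -0.19. Without replicate 3 of the cocultures that median had the opposite sign, at 0.20. Tpi1 (triosephosphate isomerase) rose 3.86-fold, from 66.2, 114, 108 and 90.0 CPM to 250.2, 359, 573 and 278 CPM (log2 fold change 1.95 ± 0.31 SE, adjusted p = 0.00253, edgeR). Eno1 (enolase) rose 3.98-fold, from 332, 539.8, 576 and 540.0 CPM to 1125, 1607, 3633 and 1539.7 CPM (log2 fold change 1.99 ± 0.39 SE, adjusted p = 0.00647, edgeR). In both genes the groups did not overlap, and Eno1 is known to have a near-identical copy with which reads could be shared. Pgam1 (phosphoglycerate mutase) rose 2.48-fold, from 299, 317, 307 and 261 CPM to 575, 716, 1136 and 512 CPM (log2 fold change 1.31 ± 0.27 SE, adjusted p = 0.00799, edgeR). Pgk1 (phosphoglycerate kinase) had 340.3, 403, 387 and 346 CPM alone and 601, 675, 1067 and 469 CPM in the cocultures and passed on adjusted p but not on fold (log2 fold change 0.93 ± 0.26 SE, adjusted p = 0.0312, edgeR). In these genes too every coculture lay above all libraries of MKs alone. Without replicate 3 of the cocultures the fold was 3.07 for Tpi1, 2.83 for Eno1 and 1.56 for Pgk1, and Pgam1 was just over 2-fold higher.

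Among genes that act on the phosphofructokinase step, Pfkfb3 and Fbp1 were called lower and Tigar higher. Pfkfb1, Pfkfb2 and Pfkfb4 were not called over 8 libraries (adjusted p = 0.769, 0.781 and 0.117, edgeR). Pfkfb4 nevertheless did not overlap, with 35.3, 41.1, 61.2 and 47.0 CPM alone and 9.76, 13.7, 0 and 9.89 CPM in the cocultures. Without replicate 3 it was called lower by 4.22-fold (log2 fold change -2.08 ± 0.24 SE, adjusted p = 2.2e-06, edgeR). Pfkfb3, which makes the activator fructose 2,6-bisphosphate, had 31.6, 34.6, 37.6 and 31.2 CPM alone and 17.3, 14.2, 12.3 and 17.5 CPM in the cocultures and was called lower (log2 fold change -1.14 ± 0.30 SE, adjusted p = 0.0242, edgeR). Tigar, which removes that activator, had 2.43, 2.68, 3.22 and 3.42 CPM alone and 8.44, 8.60, 66.2 and 7.81 CPM in the cocultures and was called higher (log2 fold change 2.95 ± 0.84 SE, adjusted p = 0.0344, edgeR). Without replicate 3, which was the highest, the Tigar log2 fold change was 1.47. With any 1 of replicates 1 to 4 of MKs alone left out, the Tigar adjusted p was between 0.0887 and 0.0986 (edgeR), and its log2 fold change was between 2.86 and 3.02. The Pfkfb3 call was lost without replicate 2 or 4 of the cocultures (adjusted p = 0.0754 and 0.0557, edgeR) and without any 1 of the libraries of MKs alone (between 0.0562 and 0.0870), with log2 fold changes between -1.19 and -1.06 in these 6 fits. Fbp1, which reverses the phosphofructokinase step in gluconeogenesis, was called lower (adjusted p = 0.00426, edgeR), with 5.52, 11.5, 7.10 and 6.67 CPM alone and 5, 3, 1 and 0 counts in the cocultures.

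Adpgk, an ADP-dependent glucokinase that phosphorylates glucose as the hexokinases do, had 389, 356, 373 and 377 CPM in MKs cultured alone and 74.4, 83.1, 50.5 and 81.9 CPM in the cocultures. It was 5.16-fold lower in the cocultures without overlap (log2 fold change -2.37 ± 0.21 SE, adjusted p = 9.06e-05, edgeR). Without replicate 3 it was 4.75-fold lower. In that fit 5 of the 14 pathway genes were called higher (20.6% over all genes) and 4 lower (15.4% over all genes). Eno3 was added to those higher and Pfkfb4 to those lower. Adpgk, Tpi1, Eno1, Pgam1 and Fbp1 were called with each of the 8 libraries left out in turn.

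To follow the pathway in order, the genes of each enzyme were summed as CPM per kb of longest transcript, a summary chosen after the values had been seen. Of 10 steps, 6 were higher in the 4 cocultures than in MKs cultured alone without overlap, and these 6 were the consecutive steps from triosephosphate isomerase to pyruvate kinase. Of single genes, 19.3% were higher without overlap. The ratio of group means was 3.86 for triosephosphate isomerase, 2.88 for glyceraldehyde-3-phosphate dehydrogenase and 1.91 for phosphoglycerate kinase. It was 2.48 for phosphoglycerate mutase, 3.97 for enolase and 2.38 for pyruvate kinase. The 4 steps before them overlapped between the groups, with ratios of 1.19 for hexokinase, 0.704 for glucose-6-phosphate isomerase, 1.48 for phosphofructokinase and 1.65 for aldolase. Without replicate 3 of the cocultures the ratio was 0.886 for hexokinase, which turned its direction, and 1.17 for aldolase. The ratios of the 6 later steps were then between 1.58 and 3.13. In that comparison phosphofructokinase was also higher without overlap, and glucose-6-phosphate isomerase was lower without overlap with a ratio of 0.536. Of single genes, 28.1% were then higher and 26.3% lower without overlap. No test of the difference between early and late steps was made.

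**Figure D3:**
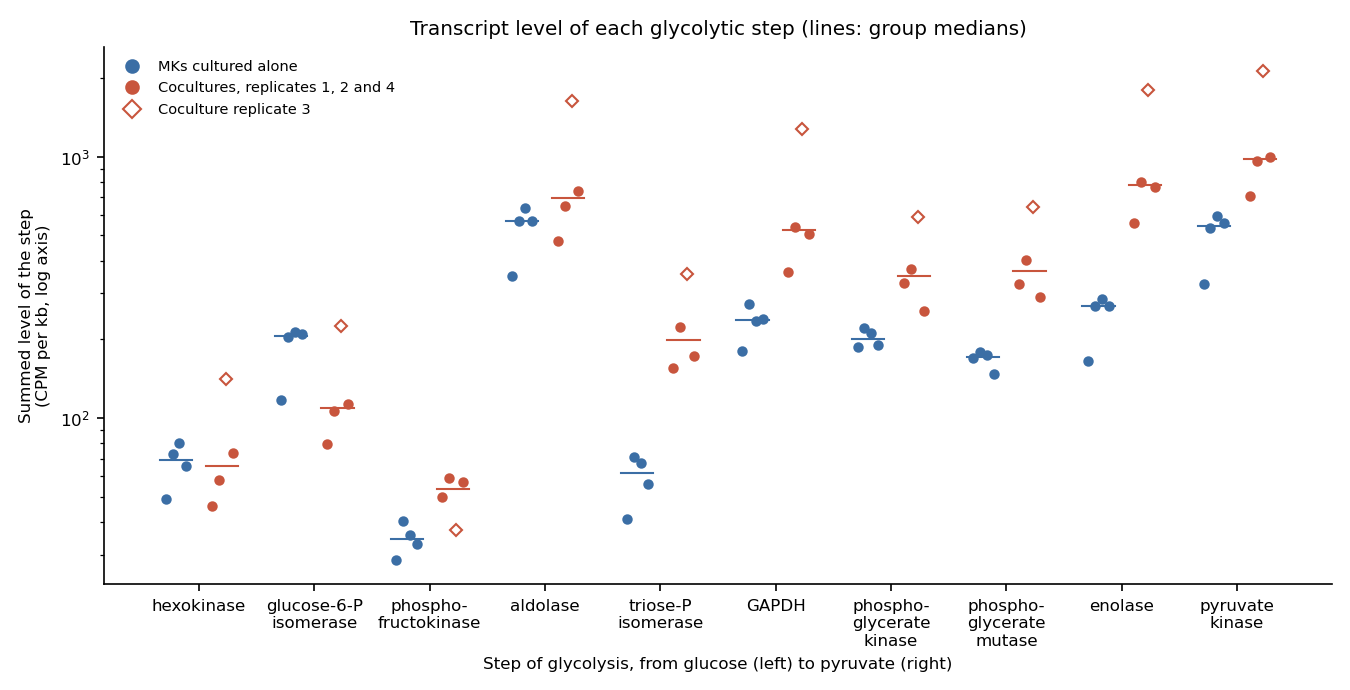
Summed level of each of the 10 glycolysis steps in pathway order (CPM per kb of longest transcript, log axis) in each library of MKs cultured alone and of the cocultures. The 6 steps from triosephosphate isomerase to pyruvate kinase are higher in all 4 cocultures than in all 4 libraries of MKs alone.

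Isoform use was measured as the share of each isoform in its family within a library, which does not depend on scaling between libraries. With counts per kb of median coding transcript length, Hk1 was 77.3 ± 2.06% (SD, n = 4) of hexokinase transcripts in MKs cultured alone and 80.0 ± 3.94% in the cocultures (exact two-sided permutation p = 0.286, adjusted p = 0.686 over 6 shares). Hk2 was 7.75 ± 2.03% alone and 5.07 ± 2.70% in the cocultures, with the lowest share, 1.19%, in replicate 3 (exact permutation p = 0.2, adjusted p = 0.686). Hk3 was 14.9 ± 0.833% alone and 14.9 ± 6.52% in the cocultures, with 23.5% in replicate 3 (exact permutation p = 1). The difference in share without replicate 3, cocultures minus MKs alone, was 4.26 points for Hk1, -1.39 points for Hk2 and -2.87 points for Hk3, against 2.68, -2.68 and -0.00246 points over 8 libraries.

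Pfkp was the largest phosphofructokinase share, 67.5 ± 6.69% (SD, n = 4) alone and 62.3 ± 9.93% in the cocultures (exact permutation p = 0.457, adjusted p = 0.686). Pfkl was 30.0 ± 6.56% alone and 34.8 ± 8.29% in the cocultures (exact permutation p = 0.371, adjusted p = 0.686). Pfkm was 2.44 ± 0.560% alone and 2.91 ± 1.97% in the cocultures, with 0.0886% in replicate 3 (exact permutation p = 0.743, adjusted p = 0.891). Without replicate 3 the difference was -9.93 points for Pfkp, 8.53 points for Pfkl and 1.40 points for Pfkm, against -5.17, 4.71 and 0.463 points over 8 libraries. In all 6 shares the groups overlapped with and without that replicate. The smallest exact permutation p that 4 against 4 libraries allow is 0.0286, and without replicate 3 it is 0.0571. A single share at 0.0286 would not pass after adjustment over the 6 shares. The adjusted p therefore cannot exclude a shift in a single share.

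The order of the hexokinases depended on the transcript length used, because partial transcript models lower the median length of Hk1 to 581 bases against 4278 bases for its longest transcript. Per kb of longest transcript, Hk1 was 37.5% and Hk3 48.6% of hexokinase transcripts in MKs cultured alone, and 41.0% and 48.8% in the cocultures. Hk2 was 13.9% and 10.2% by the same measure. Without replicate 3 of the cocultures, the coculture shares were 44.2% for Hk1, 42.9% for Hk3 and 12.9% for Hk2. Hk3 then no longer led in the cocultures. Pfkp remained the largest mean phosphofructokinase share, at 57.9% alone and 52.5% in the cocultures, with Pfkl at 37.1% and 41.7% and Pfkm at 5.08% and 5.77%. Without replicate 3, the coculture shares of Pfkp and Pfkl were nearly equal, at 46.9% and 45.5%. In replicate 2 of the cocultures Pfkl was above Pfkp (50.3% against 43.7%). With either length the 6 shares overlapped between the groups.

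**Figure D4:**
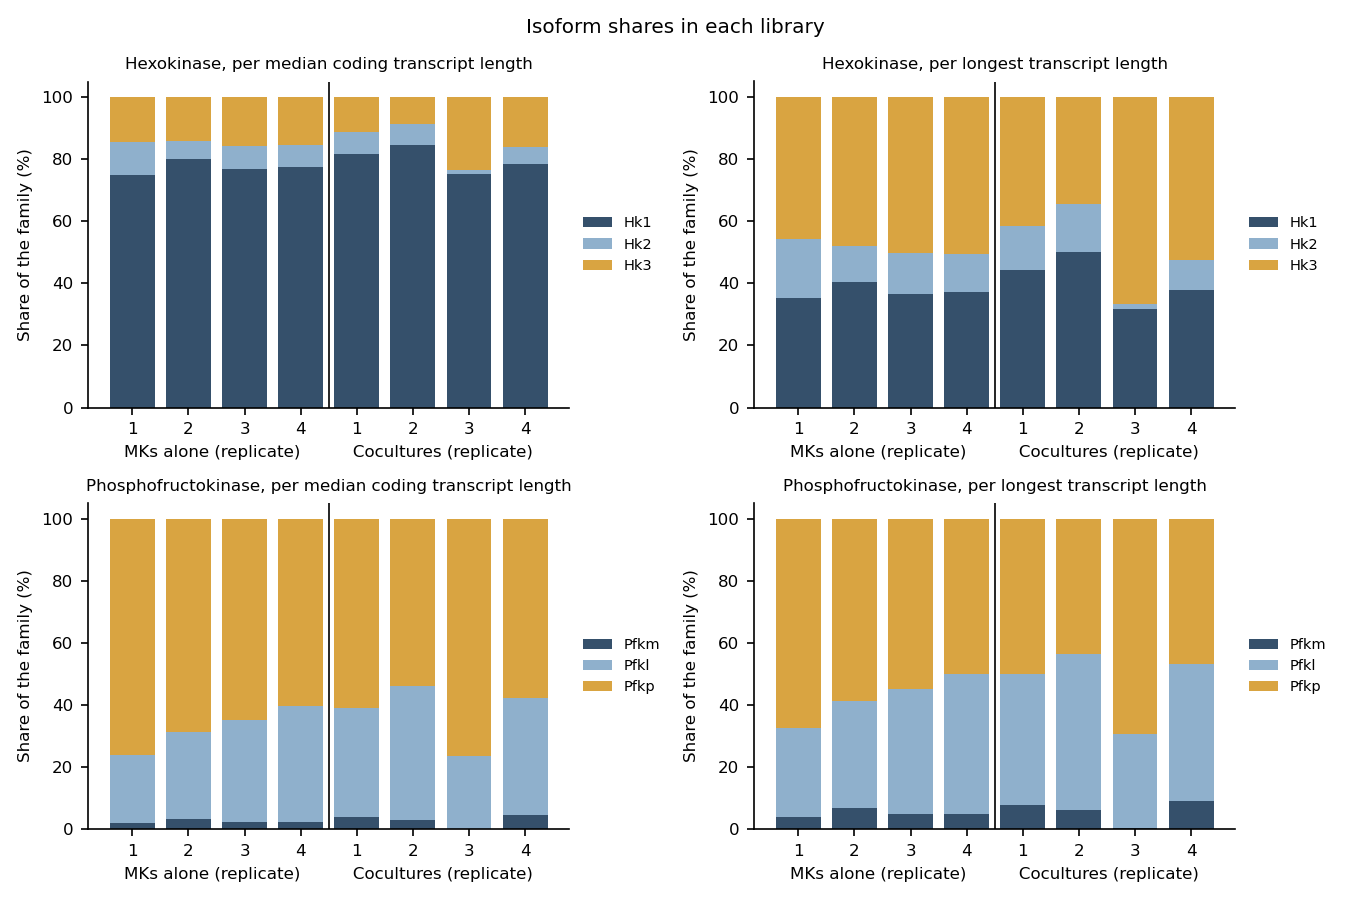
Share of each hexokinase and phosphofructokinase isoform in its family (percent) in each library, from counts per kb of median coding transcript length (left) and of longest transcript (right). The groups overlap for all 6 isoforms, and replicate 3 of the cocultures has the highest Hk3 share and the lowest Hk2 and Pfkm shares.

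Between genes, levels are given as mean CPM per kb of longest transcript. In MKs cultured alone the order was Aldoa (529), Pkm (502), Gapdh (232), Gpi1 (186), Hk3 (32.6), Hk1 (25.1), Pfkp (19.8), Pfkl (12.8), Hk2 (9.03) and Pfkm (1.79 CPM per kb). Neighbors whose ranges over the 4 libraries did not overlap were Pkm and Gapdh, Gpi1 and Hk3, Pfkp and Pfkl, and Hk2 and Pfkm, and the ranges of the other neighbors overlapped. Within a library, however, Aldoa was above Pkm, Gapdh above Gpi1 and Hk3 above Hk1 in 4 of 4 libraries, whereas Hk1 was above Pfkp and Pfkl above Hk2 in 3 of 4. In the cocultures the order began with Pkm (1194), Aldoa (872), Gapdh (670) and Gpi1 (131 CPM per kb) and went on in the same order as in MKs alone, from Hk3 (42.9) to Pfkm (3.17 CPM per kb). There, ranges did not overlap between Gapdh and Gpi1 and between Pfkl and Hk2. Within a library Hk3 was above Hk1 in 2 of 4 cocultures, Hk1 above Pfkp and Pfkp above Pfkl in 3 of 4, and each other neighbor pair kept its order in 4 of 4. Aldoa and Pkm changed places, with Aldoa higher in 4 of 4 libraries of MKs alone and Pkm higher in 4 of 4 cocultures.

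Ratios of 2 members within a library do not depend on scaling either. They were computed for all 45 pairs after the values had been seen. In 16 of the 45 pairs the groups did not overlap, and none of the 16 held Pfkm. Of the 36 pairs of the other 9 members, which have a mean of at least 10 CPM and a count in every library, these were 44.4%, against 45.4% of all pairs of such genes. Without replicate 3 of the cocultures they were 21 of 36 (58.3%) against 60.4% of all pairs. Both shares were near the background. None of the 45 pairs passed an adjusted p of 0.05 (lowest exact permutation p = 0.0286, adjusted p = 0.08), and 16 pairs had this exact p under 0.05. It is the smallest exact p that 4 against 4 libraries allow. With 16 pairs at it, adjustment over 45 pairs could not reach 0.05, so the adjusted p does not decide for any pair. The Pkm to Gpi1 count ratio was 2.35, 2.20, 2.34 and 2.24 in MKs cultured alone and 7.46, 7.62, 7.96 and 7.43 in the cocultures, and replicate 3 did not stand apart. The Gapdh to Gpi1 ratio was 0.758, 0.659, 0.544 and 0.565 alone and 2.24, 2.50, 2.79 and 2.20 in the cocultures. The Pkm to Aldoa ratio was 1.46, 1.49, 1.47 and 1.54 alone and 2.33, 2.34, 2.03 and 2.13 in the cocultures. In these 3 pairs every coculture lay above every library of MKs alone.

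**Figure D5:**
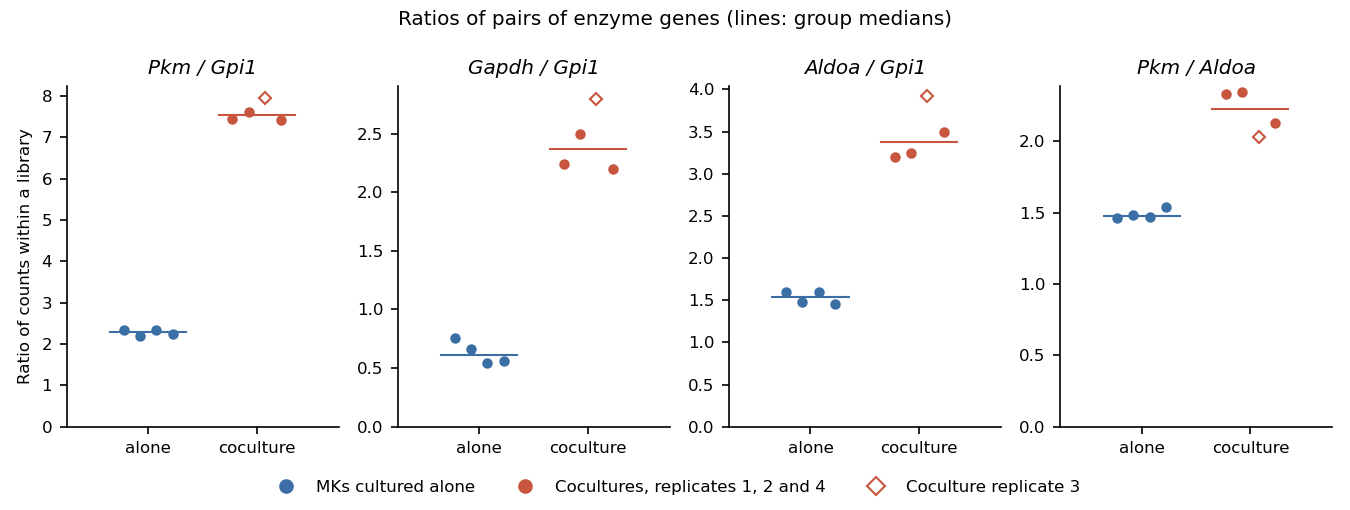
Within-library count ratios of member pairs in each library of MKs cultured alone and of the cocultures. The Pkm to Gpi1 ratio lies between 2.20 and 2.35 in MKs alone and between 7.43 and 7.96 in the cocultures, replicate 3 included.

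The genes whose levels were most like each isoform were named by Pearson r of log2(CPM + 1) over the 8 libraries, among genes with a mean of at least 10 CPM. These values are descriptions, since all points share the 2 groups and replicate 3 of the cocultures. For Hk1 they were Mcm5 (r = 0.984) and Fem1a (0.974). For Hk2 they were Polr1b (r = 0.991), Pcnx (0.983) and Txndc11 (0.982), and for Hk3 Nrgn (r = 0.989), Wbp2 (0.986) and Cln3 (0.985). For Pfkm they were Cep250 (r = 0.989), B4galt7 (0.984) and Knop1 (0.983), and for Pfkl Aaas (r = 0.997), Dnpep (0.978) and Plbd2 (0.978). For Pfkp they were Eif2b3 (r = 0.978), Pitrm1 (0.955), whose exons overlap those of Pfkp, and Gars (0.950).

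Promoters of the members were read from RefSeq sequences (GRCm38.p6), in windows from 250 bases before to 50 bases after each annotated start. All 10 members had at least 1 window and together they had 17. ACGTG, the core of the hypoxia response element through which hypoxia-inducible factors are known to act on glycolytic genes, was searched on both strands, and CACGT is its reverse complement. It was in 9 of 17 windows (52.9%), from 7 of the 10 members (Aldoa, Gapdh, Hk1, Hk2, Hk3, Pfkm and Pkm), against 19.6% of all 32851 windows. GCGTG, the other common form of this core, was in 6 of 17 windows (35.3%) against 32.4% of all, and the Gpi1 windows held neither form. GGGCGG was in 41.2% of member windows against 35.7% of all, and TATAAA was in 0 of 17 against 13.6%. Windows of the same gene can overlap, and a match describes letters only. The stretches are shown for Gapdh and Pkm, the members called higher, and for Aldoa and Hk2, which were not called, and capitals mark the match as read on the strand of the gene. The Pkm matches lie 75 bases before the start (chr9:59657140-59657168, plus strand) and 8 bases after it (chr9:59657223-59657251). The Gapdh matches lie 42 bases after the start (chr6:125165724-125165743, minus strand) and, for GCGTG, 44 and 54 bases before it, of which the nearer is shown (chr6:125165801-125165829). The Aldoa match lies 126 bases before 1 of its starts (chr7:126799364-126799392, minus strand), and the Hk2 matches lie 226 and 52 bases before its start, of which the nearer is shown (chr6:82774490-82774518, minus strand).
Pkm, before the start: ctccgatccggtCACGTccgcgccgcagc
Pkm, after the start: ccgcattctagtCACGTccgcggactcct
Gapdh, after the start: gctttacgggtgCACGTagc
Gapdh, before the start: cacacgcttggtGCGTGcacatttcaaaa
Aldoa: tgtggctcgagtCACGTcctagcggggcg
Hk2: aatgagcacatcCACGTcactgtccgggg
Genes called higher and genes not called thus both carried the ACGTG letters, and Pfkl, Pfkp and Gpi1 did not carry them in these windows.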

How the data were processed

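RNA-Seq was done on 4 libraries of MKs cultured alone and 4 cocultures, grouped by the labels. Whole-number counts for each gene symbol, without normalization, were deposited by the authors, whose methods derive them with kallisto on the mm10 transcriptome from reads of SMART-Seq HT libraries filtered by fastp. The submitters' processing notes name kallisto, DESeq2 and mm10. How transcripts were summed and whether strand was used is not given in the sources used here, so genes whose exons overlap cannot be separated. No gene had fewer than 11 counts in total.

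Tests used R 4.3.3 with edgeR 4.0.16 (quasi-likelihood test with robust fitting, TMM scaling, filterByExpr, no covariate) on 11722 genes, and Python 3.11.15 and scipy 1.17.1. The SE is the absolute log2 fold change over the square root of F. Called genes differed at least 2-fold with an adjusted p (Benjamini-Hochberg) up to 0.05 and averaged 1 CPM or more in a group. The study names a batch term but no batches. Isoform shares used the median length of coding transcripts, and levels between genes and steps used the longest transcript (GENCODE vM21, GRCm38, the build of mm10), with 10 of 10 members matched. Shares and ratios were tested by exact permutation. Exact duplicates were looked for, and no pair of libraries agreed within sampling noise. Reads carry no molecular identifiers, so floors of 3 counts cover counting error only.

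The members and gene lists were chosen with earlier results of these data known. Genes named were the 10 members, the other glycolysis genes called and the highest of each step, the 3 genes most like each hexokinase and phosphofructokinase, and the highest of each marker list, of which 1 gene is not reported here. Genes named beyond these were picked with their values in view. Alternatives were DESeq2 1.42.0, other scalings (RLE, library size only, MK and platelet markers), no filter on low counts, adjusted p alone, the replicate number as a block, other transcript lengths and leaving out each library. The tests were tested on simulated data. All 8 libraries entered each value unless stated.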

Additional observations from a re-analysis of the deposited data

Results flagged for a closer look

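In each group of 4 libraries, the level of each of the 10 members and the share of each of the 6 isoforms were examined, and a value was picked out when 1 library lay far from the other 3 relative to the group's whole range. Of 32 groups of values examined, 3 were picked out, where chance gives 1.6. Pfkm stood at 0.27 on the log2(CPM + 1) scale in replicate 3 of the cocultures, from 2 counts, with the other 3 cocultures between 3.5 and 3.98. Pfkl stood at 4.98 in replicate 1 of MKs cultured alone, with the other 3 libraries between 5.73 and 5.82. Gpi1 stood at 8.40 in the same library, with the others between 9.20 and 9.27. Replicate 1 of MKs cultured alone had the fewest counts of the 8 libraries and held the lowest value for 5 members. The part of depth in these values was not tested.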

How the results depend on the processing

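Members called higher numbered 2 under DESeq2, RLE factors, library size only, no filter, adjusted p alone and the replicate block, and 3 with scaling to MK and platelet markers, and members called lower numbered 0 under each. Over all genes, 2296 were called higher under DESeq2, 1489 with RLE factors, 1611 with library size only and 1806 with no filter. Genes called lower in these 4 fits were 1345, 882, 746 and 892. With 1 library left out, 0 to 2 members were called higher (0 without any 1 of the 4 libraries of MKs alone, 1 without replicate 2, 3 or 4 of the cocultures) and 0 lower. Calls over all genes moved as well. Without 1 library of MKs alone, 1071 to 1106 genes were called higher and 539 to 581 lower, against 1544 and 857 with 8 libraries. Without 1 coculture, 1347 to 2530 were called higher and 570 to 1890 lower. Pathway genes called over 8 libraries were 3 to 6 higher and 2 to 4 lower under the alternatives. The 6 came with scaling to MK and platelet markers and under DESeq2 with the replicate block (2063 higher over all genes). With 1 library left out, pathway genes called were 3 to 5 higher and 2 to 4 lower. The log2 fold change ran from 0.99 to 1.74 for Gapdh (adjusted p 0.000345 to 0.0739, edgeR), from 0.80 to 1.44 for Pkm (0.00504 to 0.105) and from -0.36 to 0.68 for Hk3, which was negative without replicate 3 of the cocultures. Pfkm passed without that replicate (1.18), and Pfkl passed with scaling to MK and platelet markers (1.10, adjusted p = 0.0447, edgeR), which moved the median of all genes from 0.03 to 0.35 and the calls from 1544 higher and 857 lower to 2227 and 545. The difference in Hk3 share was 1.24 points by counts, 1.01 by union exon length, 0.19 by longest transcript and -2.87 to 2.09 with a library left out, and that in Pfkm share was -0.090 to 1.40. Pairs without overlap numbered 16 to 27 (27 of 45 without replicate 3 of the cocultures) and steps 6 to 7. Of the 36 pairs without Pfkm, 21 (58.3%) did not overlap when that replicate was left out. The share was then 60.4% for all pairs of genes with a mean of at least 10 CPM and a count in every library. Libraries of the same number did not all deviate together (r = 0.369, 0.0198, 0.15 and 0.028), so the number was not taken as a pairing. With the replicate block, Gapdh had a log2 fold change of 1.36 (adjusted p = 0.0439, edgeR) and Pkm 1.16 (adjusted p = 0.0298), 3 pathway genes were called higher and 2 lower (Tigar, adjusted p = 0.114, and Pfkfb3, adjusted p = 0.0769, were not called), and over all genes 1096 were called higher and 573 lower, where the median was -0.14.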

Other observations

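Gapdh is a common denominator in RT-PCR, so its ratio to the other members was computed within each library, after the values had been seen. The Gapdh to Hk1 count ratio was 3.46, 3.08, 2.67 and 3.26 in MKs cultured alone and 5.85, 6.17, 9.47 and 6.02 in the cocultures. The Gapdh to Hk2 ratio was 5.04, 8.38, 5.77 and 7.74 alone and 14.5, 15.6, 125 and 18.7 in the cocultures. In both pairs every coculture lay above every library of MKs alone (exact permutation p = 0.0286 and adjusted p = 0.08 for each). Of the Gapdh pairs, 5 did not overlap, and those with Pfkm, Pfkl, Pfkp and Pkm overlapped. The share without overlap was 45.4% for all pairs of genes with a mean of at least 10 CPM and a count in every library. Hk2, read relative to Gapdh, was thus lower in all 4 cocultures, while its CPM overlapped between the groups. The Gapdh to Pkm ratio was 0.323, 0.299, 0.232 and 0.252 alone and 0.300, 0.328, 0.351 and 0.296 in the cocultures, and the groups overlapped.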
